A study of Mus musculus with 20 samples.

Results

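The genes described here are drug-metabolizing cytochrome P450s of the Cyp1, Cyp2, Cyp3, Cyp4f and Cyp4v families, their redox partner Por, the flavin monooxygenases Fmo1 and Fmo5, and the xenobiotic receptors Ahr, Nr1i2 (PXR) and Nr1i3 (CAR). They were taken from a list of 40 symbols, through the probe sets to which the array platform's annotation gives exactly 1 symbol. This found 36 genes on 47 probe sets, of 18193 genes on 34945 such probe sets. Cyp2a5 and Cyp3a41a had only a probe set shared with other symbols, and Por and Cyp2c44 had none under those symbols. Of the 36 genes, 9 had several probe sets, and the one with the highest mean stands for the gene.

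The livers were those of males of the C57BL/6J strain at 8 weeks of age, taken after 16 h without food, and each mouse had 1 Affymetrix 3' array. In the MSXH group, 10 mice were fed 45 kcal% fat with 0.02% of a maple syrup extract for 4 weeks. In the HFD group, 10 mice were fed the 45 kcal% fat diet alone over the same 4 weeks. Both groups carried the high-fat diet, and the low-fat group and the higher extract dose that the series names were not analysed here. The question is whether liver expression differed with the extract on that diet. In whole liver, fewer cells of a type and less RNA per cell cannot be told apart.

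P450s are haem enzymes of the endoplasmic reticulum that take electrons from the P450 reductase and oxidize drugs, steroids, bile acids and fatty acids, mostly in hepatocytes. AHR, PXR and CAR bind or sense foreign compounds and switch on P450 genes: Cyp1a1 and Cyp1a2 are classical targets of AHR, Cyp3a11 of PXR and Cyp2b10 of CAR. In mice several of these genes are also set by sex, through the pattern of growth hormone secretion, with Cyp2d9 high in males and Cyp2b9, Cyp2b13, Cyp3a16, Cyp3a41a and Cyp3a44 high in females.

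Levels are the deposited values, taken as log2 units, and array medians lay between 6.5216 and 6.5226. Arrays differed very little: the median SD of a probe set was 1.07e-05 (20 arrays), and for 97.6% of probe sets the SD was under 0.001. A group difference is therefore given as a standardized difference, MSXH minus HFD over the pooled SD within groups, with its 95% interval, and never as a fold. A pair count sets each MSXH mouse against each HFD mouse, 100 pairs in all, and counts those with the MSXH mouse higher. The hepatocyte markers fitted the labelled tissue, with 0 of 9 measured markers under every array median, and the female-predominant list (Cyp2b9, Cyp2b13, Cyp3a16, Cyp3a44 and Sult3a1) fitted the labelled sex, with 5 of 5 measured genes under every array median. The libraries MSXH 4 and MSXH 6 stood apart in skeletal muscle genes, with mean z scores of 3.35 and 1.30 over 10 genes, against at most 0.034 in the other 18 mice. They were also the highest in the adipocyte list, at 1.16 and 1.6 over 5 genes (at most 0.644 in the others). In the cholangiocyte list they were highest too, at 1.37 and 0.910 over 5 genes (at most 0.862 in the others). Of these genes, 3 of 5 adipocyte and 4 of 5 cholangiocyte genes lay under every array median. The 2 scores therefore say little about fat or bile duct cells. MSXH 7 and MSXH 8 stood apart in the genes described here, as set out below. Nothing in the labels says whether mice shared a cage, so p-values measure the spread between these mice.

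No gene of the set passed the test between the diets. By limma, 0 of 36 genes had an adjusted p under 0.05, where the share among all 18193 genes was 0%, and the smallest adjusted p of the set was 0.479. At an unadjusted p under 0.05 the count was 0 of 36, where the share among all genes was 10.9% (6.58% higher and 4.31% lower in MSXH). The exact rank sum test with the same adjustment called 0 of 36 too, and 4 of all 18193 genes. All 36 intervals included 0 and all 36 pairs of ranges overlapped. The standardized difference was under 0.5 in size for 25 of 36 genes. Shares of all genes were not computed for intervals, ranges and sizes, so these counts describe the set alone.

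The means leaned downward in MSXH: 11 genes had a higher mean and 25 a lower one. That is 30.6% higher, where the share among all genes was 54.7%, and the median standardized difference was -0.231 for the set and 0.067 for all genes. The median of the set was -0.084 without MSXH 7 alone and -0.132 without MSXH 8 alone. Without MSXH 7 and MSXH 8, left out after the data were seen, 24 of 36 genes had a higher mean in MSXH. The median was then 0.094, with 0.069 for all genes. These mice were low in many genes of the set, so leaving them out had to raise the MSXH means of those genes. The turn is a description and does not test the lean. Other scalings moved all genes: the median of all genes was -0.553 after quantile normalization and -0.661 after centring, which takes off each array's own median. The set's medians were then -0.444 and -0.638. Under quantile normalization 2 genes were higher and 28 lower (7.06% of all genes were higher), with 6 genes at 1 value on all arrays. Under centring 2 were higher and 34 lower (2.75% of all genes were higher). Without MSXH 4 and MSXH 6, the medians under centring were -0.081 for the set and -0.033 for all genes.

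**Figure D1:**
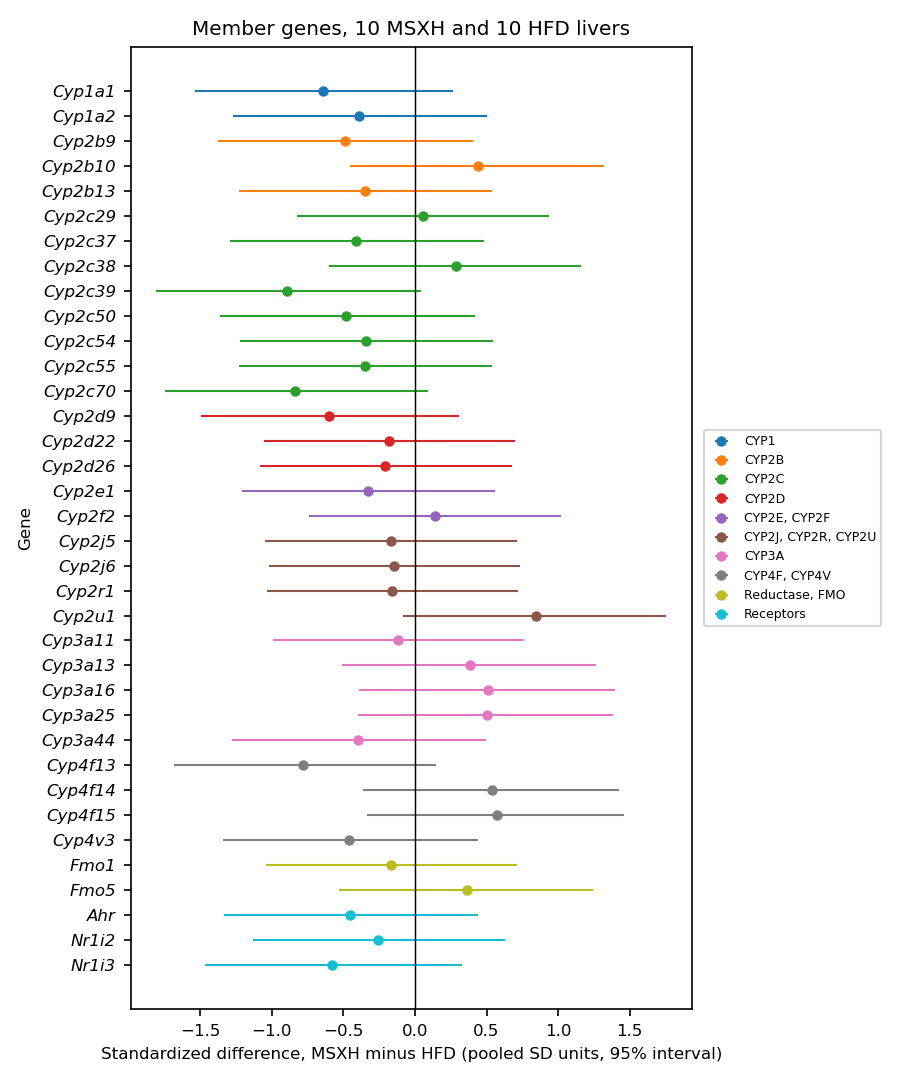
Standardized difference of each of the 36 genes, MSXH minus HFD in pooled SD units (x axis), with 95% intervals as lines, 10 mice per group, coloured by family. Every interval crosses 0, and the points run from -0.895 (Cyp2c39) to 0.848 (Cyp2u1).

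The receptors come first, as the sensors of the pathway. Ahr, the receptor for dioxins and plant indoles, ranged from 8.9367 to 8.9393 (median 8.9374) in MSXH livers and from 8.9341 to 8.9400 (median 8.9389) in HFD livers. The ranges overlapped, since the lowest mouse of all was HFD 3, and MSXH was higher in 30 of 100 pairs. The difference was -0.452 (interval -1.335 to 0.443, limma adjusted p 0.743). Without HFD 3 it was -1.135, with a limma unadjusted p of 0.0215 and an adjusted p of 0.365. Leaving out this lowest mouse raises the HFD mean, and it was the only run without 1 mouse that put Ahr at an unadjusted p under 0.05. The second probe set of Ahr gave -0.498, but followed the first only loosely between mice (Spearman's rho 0.266).

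Nr1i2, which encodes the steroid and drug sensor PXR, ranged from 8.1582 to 8.1594 (median 8.1587) in MSXH and from 8.1574 to 8.1598 (median 8.1589) in HFD. The MSXH mice lay inside the HFD range, which reached below them only through HFD 3, at 8.1574. MSXH 4, MSXH 6 and MSXH 10 lay below the other HFD mice, which began at 8.1584. The difference was -0.256 (-1.133 to 0.628, limma adjusted p 0.870). The second probe set of Nr1i2 gave -0.699 (limma unadjusted p 0.128) and followed the first closely between mice (Spearman's rho 0.923). Nr1i3, which encodes CAR, ranged from 9.0931 to 9.0998 (median 9.0988) in MSXH and from 9.0967 to 9.0999 (median 9.0990) in HFD. The MSXH range reached lower only through MSXH 7 and MSXH 8, at 9.0931 and 9.0941. The Nr1i3 difference was -0.576 (-1.465 to 0.328, limma adjusted p 0.665), and 0.058 without these mice. All 3 receptors had a lower mean in MSXH, except Nr1i3 without MSXH 7 and MSXH 8, and 0 of 3 passed the test. They were lower under quantile normalization and centring too. Only 7.06% and 2.75% of all genes were higher under these scalings, so this adds little. HFD 3 was the lowest HFD mouse for all 3 receptors.

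The targets of AHR did not pass the test either. Cyp1a1, which oxidizes polycyclic hydrocarbons and is low in uninduced liver, stayed under the array median on all 20 arrays. Its level ranged from 6.176854 to 6.176917 (median 6.176885) in MSXH and from 6.176877 to 6.176930 (median 6.176892) in HFD, a difference of -0.642 (-1.534 to 0.267, limma adjusted p 0.618). The ranges overlapped, and without MSXH 4 and MSXH 6 the difference was -1.008 (unadjusted p 0.0446, adjusted p 0.474). Cyp1a2, the constitutive liver enzyme that oxidizes caffeine and arylamines, ranged from 10.7151 to 10.7245 (median 10.7209) in MSXH and from 10.7185 to 10.7243 (median 10.7224) in HFD. The highest mouse and the lowest both belonged to MSXH, and the difference of -0.391 (-1.271 to 0.5, limma adjusted p 0.782) was 0.111 without MSXH 7 and MSXH 8.

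Among the Cyp2b genes, Cyp2b10, the usual readout of CAR activity, ranged from 6.63459 to 6.63493 (median 6.63468) in MSXH and from 6.63455 to 6.63487 (median 6.63464) in HFD. The ranges nearly coincided. The difference was 0.439 (-0.455 to 1.321, limma adjusted p 0.754), and 0.061 without MSXH 7 and MSXH 8, of which MSXH 7 was the highest of the 20 mice. Its other probe sets lay under the array median on all 20 arrays and gave 0.260 and -0.025. The latter was the only change of sign among the 11 further probe sets of the set. The Cyp2b10 levels given above were themselves not far over the array medians, 6.5216 to 6.5226. The female-predominant Cyp2b9 and Cyp2b13 lay under the array median on all 20 arrays, with differences of -0.490 and -0.351. Without MSXH 4 and MSXH 6, Cyp2b13 stood at -1.097 (limma unadjusted p 0.0307, adjusted p 0.434).

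The Cyp2c genes, which make epoxides of arachidonic acid and oxidize many drugs, held both the smallest p of the set and its widest spread between mice. Of 8 genes, 2 had a higher and 6 a lower mean in MSXH, and 0 passed the test. The count higher was 0 under both scalings, where 7.06% and 2.75% of all genes were higher, and 5 without MSXH 7 and MSXH 8. Cyp2c39, known as a retinoic acid hydroxylase, ranged from 6.581624 to 6.581692 (median 6.581654) in MSXH and from 6.581623 to 6.581737 (median 6.581680) in HFD. The 2 highest mice were both HFD, and so was the lowest. The Cyp2c39 levels, like those of Cyp2c55, lay not far over the array medians, 6.5216 to 6.5226. The Cyp2c39 difference was -0.895 (-1.807 to 0.040, higher in 26 of 100 pairs, limma unadjusted p 0.056 and adjusted p 0.479). Without HFD 1, the lowest mouse, it was -1.304 (limma unadjusted p 0.0098, adjusted p 0.387). Leaving out that mouse raises the HFD mean, and this was the smallest unadjusted p of the set among the runs without 1 mouse.

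Cyp2c70, the mouse enzyme that makes muricholic acids, ranged from 10.6832 to 10.7097 (median 10.7017) in MSXH and from 10.6918 to 10.7149 (median 10.7068) in HFD. The 3 lowest mice were MSXH 7, 8 and 6, and the 4 highest were HFD. The difference was -0.840 (-1.747 to 0.089, 27 of 100 pairs, limma adjusted p 0.509), and -0.524 without MSXH 7 and MSXH 8.

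Cyp2c37, Cyp2c50 and Cyp2c54 are neighbouring, closely related genes, so their probe sets may share transcripts and their values are uncertain to that extent. Cyp2c37 ranged from 9.6081 to 9.6634 (median 9.6546) in MSXH and from 9.6429 to 9.6652 (median 9.6540) in HFD. Cyp2c50 ranged from 11.4502 to 11.4719 (median 11.4666) in MSXH and from 11.4643 to 11.4720 (median 11.4678) in HFD. Cyp2c54 ranged from 9.9792 to 10.0478 (median 10.0326) in MSXH and from 10.0225 to 10.0487 (median 10.0331) in HFD. In all 3 the medians nearly coincided and MSXH 7 and MSXH 8 were the lowest mice. For Cyp2c50 and Cyp2c54, MSXH 6 also lay below every HFD mouse, at 11.4624 and 10.0216. The differences of -0.409, -0.478 and -0.344 (limma adjusted p 0.772, 0.725 and 0.812) were 0.468, 0.157 and 0.352 without these mice. Cyp2c29 stood at 0.058, Cyp2c38 at 0.285 and Cyp2c55, inducible through CAR and PXR, at -0.351. The platform gives 1 probe set to Cyp2c23, for which RefSeq lists Cyp2c44 as a synonym. It stood at -0.207 (-1.083 to 0.675, limma adjusted p 0.898) and is not counted among the 36.

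**Figure D2:**
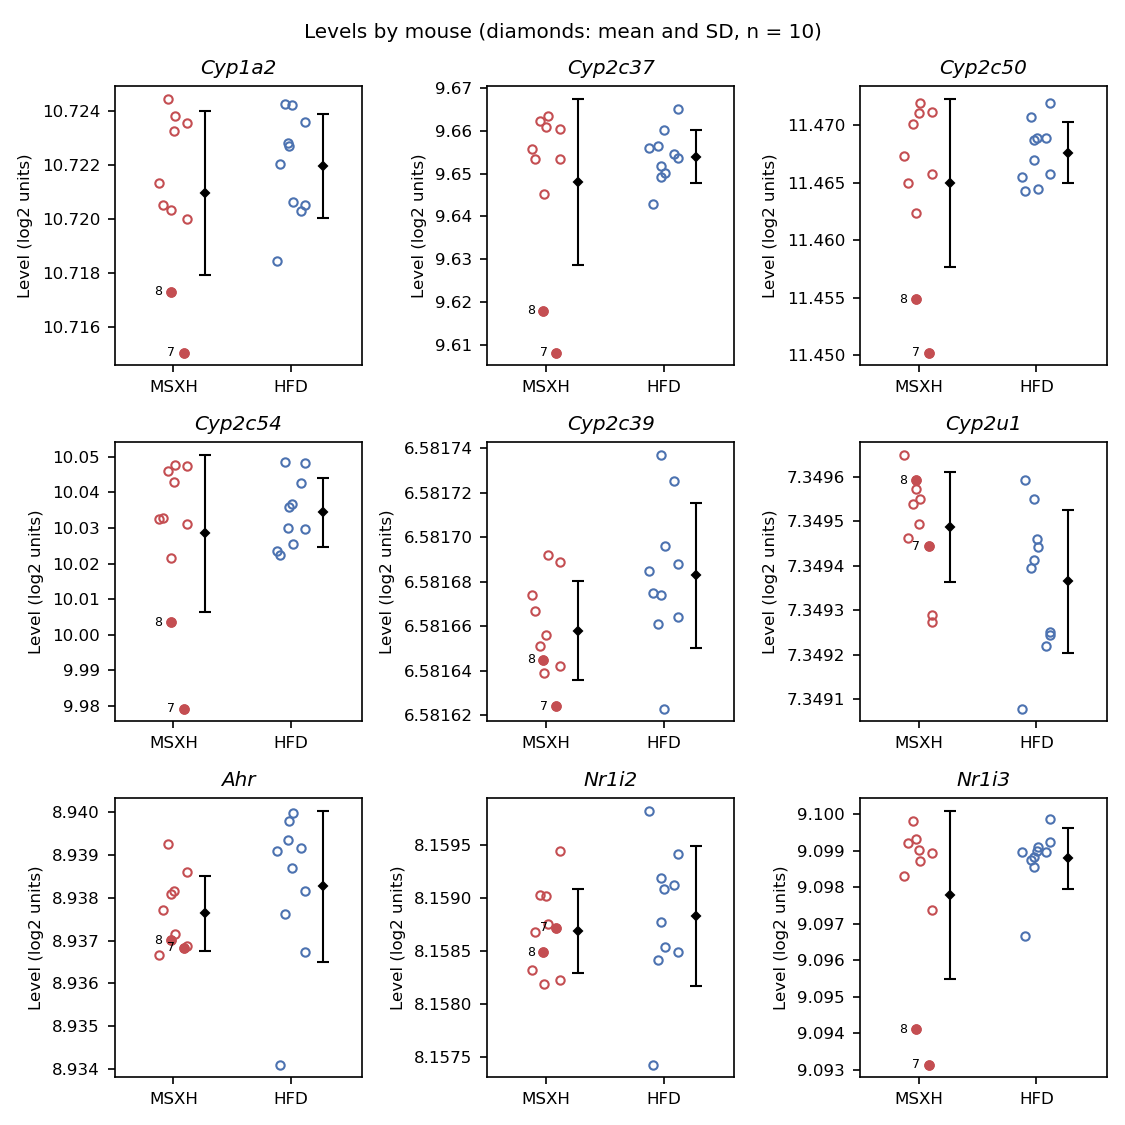
Level of 9 genes in each mouse (y axis, log2 units, each panel on its own narrow scale), MSXH left of HFD, with diamonds and bars for mean and SD of 10 mice; filled points are MSXH 7 and MSXH 8. These mice are the 2 lowest points for Cyp1a2, Cyp2c37, Cyp2c50, Cyp2c54 and Nr1i3, and lie among the others for Cyp2u1, Ahr and Nr1i2.

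Cyp2d9, the male-predominant steroid 16-alpha-hydroxylase, ranged from 13.07592 to 13.07649 (median 13.07636) in MSXH and from 13.07627 to 13.07652 (median 13.07639) in HFD. MSXH 7 and MSXH 8 were again the lowest, at 13.07592 and 13.07599, and the other 18 mice began at 13.07627. The difference of -0.601 (-1.491 to 0.305, limma adjusted p 0.647) was -0.017 without them. Cyp2d22 and Cyp2d26, further Cyp2d enzymes of liver, stood at -0.179 and -0.207. Cyp2e1, which oxidizes ethanol and acetaminophen, had the smallest spread of the set, an SD of 3.71e-07 at a mean of 14.315 in both groups. Its standardized difference was -0.330, and that of Cyp2f2, which activates naphthalene, was 0.141.

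Cyp2u1, a fatty acid hydroxylase, stood highest of the set relative to HFD. It ranged from 7.34927 to 7.34965 (median 7.34952) in MSXH and from 7.34908 to 7.34959 (median 7.34940) in HFD. The ranges overlapped over most of their length, while MSXH was higher in 76 of 100 pairs. The difference was 0.848 (-0.081 to 1.756, limma unadjusted p 0.0685, adjusted p 0.506). Its second probe set, which lay under the array median on all 20 arrays, stood at 1.189 (0.217 to 2.132), higher in 79 of 100 pairs, with an unadjusted p of 0.0139 and an adjusted p of 0.348 over all probe sets. It was the only one of the set's 47 probe sets at an unadjusted p under 0.05, where the share among all 34945 probe sets was 10.7% (6.03% higher and 4.69% lower in MSXH). Of the 47 probe sets, 15 had a higher mean in MSXH, or 31.9%, where the share among all was 53%. Cyp2u1 turned negative after quantile normalization (-0.206) and after centring (-0.131), both above the median of all genes under the same scaling. The arachidonic acid epoxygenase Cyp2j5 stood at -0.170, its relative Cyp2j6 at -0.143, and Cyp2r1, the vitamin D 25-hydroxylase, at -0.157.

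Of the 5 Cyp3a genes, 3 (60%) had a higher mean in MSXH, where the share among all genes was 54.7%. The count was 0 of the 3 with a value under quantile normalization and 1 of 5 under centring. It was 4 of 5 without MSXH 7 and MSXH 8, and 0 of 5 passed the test. Cyp3a11, the main drug-oxidizing P450 of mouse liver, ranged from 13.02054 to 13.02117 (median 13.02095) in MSXH and from 13.02067 to 13.02115 (median 13.02098) in HFD. The groups overlapped almost fully, and the difference was -0.115 (-0.990 to 0.764, limma adjusted p 0.951). Cyp3a13, also an intestinal enzyme, ranged from 10.2449 to 10.2468 (median 10.2457) in MSXH and from 10.2446 to 10.2467 (median 10.2456) in HFD, a difference of 0.383. Cyp3a25 stood at 0.501. The female-predominant Cyp3a16 (0.511) and Cyp3a44 (-0.397) lay under the array median on all 20 arrays.

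Of the fatty acid and leukotriene hydroxylases, Cyp4f13 stood at -0.778 (-1.680 to 0.144, limma adjusted p 0.557), while Cyp4f14 and Cyp4f15 stood at 0.537 and 0.571. Cyp4f14, which inactivates leukotriene B4, ranged from 9.50060 to 9.50121 (median 9.50097) in MSXH and from 9.50030 to 9.50109 (median 9.50087) in HFD. Their ranges overlapped, and both Cyp4f14 and Cyp4f15 turned negative under quantile normalization (-0.220 and -0.540) and centring (-0.049 and -0.458). Cyp4v3, also a fatty acid hydroxylase, stood at -0.457. The flavin monooxygenases, which oxidize nitrogen and sulfur atoms of drugs without haem, stood at -0.165 (Fmo1) and 0.362 (Fmo5).

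MSXH 7 and MSXH 8 were the 2 lowest of all 20 mice in 8 of 36 genes, or 22.2%, where the share among all genes was 2.44%. These were Cyp1a2, Cyp2c37, Cyp2c50, Cyp2c54, Cyp2c70, Cyp2d9, Cyp2e1 and Nr1i3. Cyp2e1 counts only by differences past the sixth decimal. For Cyp2c37 they stood at 9.6081 and 9.6179, while the other 18 mice lay between 9.6429 and 9.6652. For Nr1i3 they stood below the 9.0967 to 9.0999 of the others. MSXH 7 alone was the lowest mouse in 15 of 36 genes, or 41.7%, where the share among all genes was 7.95%. Cyp2b10, Cyp3a13, Fmo5 and Cyp4f15 ran the other way, with these 2 mice among the 4 highest of the 20. These genes were picked by their ranks, and the share of all genes with such ranks was not counted. MSXH 7 and MSXH 8 were themselves singled out after the values of the set were seen. The shares of 22.2% and 41.7% are therefore a description, over genes that covary.

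Marker lists were read beside this pattern. The hepatocyte list was highest of all mice in MSXH 7 and MSXH 8, at mean z scores of 1.06 and 0.823 over 9 of 10 genes, against -1.114 to 0.705 in the other 18. Of these 9 genes, 5 (Alb, Apoa1, Apoc3, Ttr and F2) had the same value in all 20 mice to 5 decimals, so the score says little about the amount of hepatocyte RNA. The male-predominant list (Cyp2d9, Cyp4a12a and Elovl3 of 4 listed) was the lowest, at -2.18 and -1.88, against -0.951 to 1.127 in the others. Cyp2d9 is also among the genes named above in which these mice were the lowest, and the score was not computed without it. The female-predominant list stood at 0.045 and -0.611, inside the range of the others, -0.628 to 1.060, and its 5 genes remained under every array median. The muscle list stood at -0.202 and -0.179. The differences between the 3' and 5' control probe sets of Gapdh were 0.50763 and 0.50768, where the ranges were 0.50760 to 0.50770 in MSXH livers and 0.50762 to 0.50767 in HFD livers. Those of Actb were 1.26184 and 1.26187, among the 4 highest of the 20 arrays, where the ranges were 1.26162 to 1.26187 in MSXH livers and 1.26162 to 1.26190 in HFD livers. The part of the male-predominant genes, the hepatocyte markers and RNA quality in the result was not tested.

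**Figure D3:**
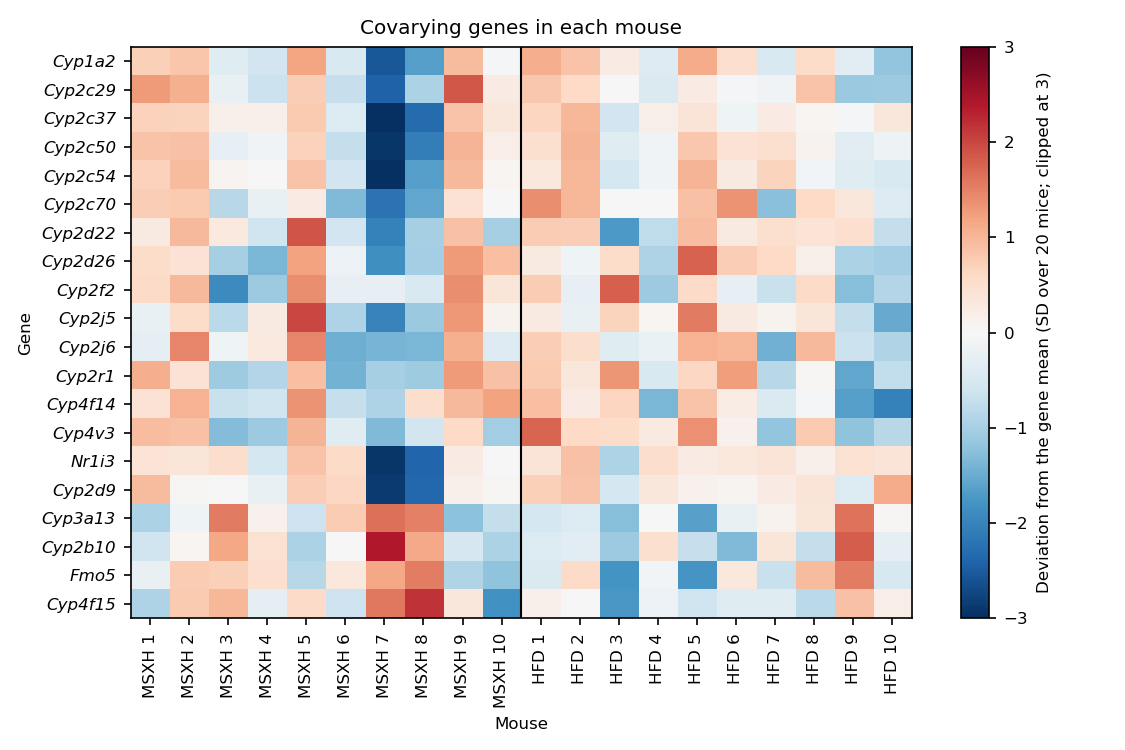
Deviation of 20 genes of the set from their mean, in SD over 20 mice (colour, clipped at 3), with mice as columns and MSXH left of the line; the genes were chosen after their values were seen. MSXH 7 and MSXH 8 are dark blue for Cyp2c37, Cyp2c50, Cyp2c54, Nr1i3 and Cyp2d9, and red for Cyp3a13, Cyp2b10, Fmo5 and Cyp4f15.

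Between mice, the spread ran from an SD of 3.71e-07 for Cyp2e1 to 0.0169 for Cyp2c54. Cyp2c54, Cyp2c37 and Cyp2c70 had larger SDs than 99.4%, 99.3% and 99.1% of all genes, and 17 of 36 genes exceeded 90% of all genes. Much of this spread was shared. Of the 630 pairs of genes in the set, 73 (11.6%) had a Spearman's rho above 0.6 over the 20 mice and 24 (3.81%) one below -0.6, where the shares among all gene pairs were 1.14% and 0.829%. Without MSXH 7 and MSXH 8, 63 pairs (10%) lay above and 18 (2.86%) below, against 1.39% and 1.05% of all pairs. The points of these correlations share mice, arrays and scaling, and they are given as a description.

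The largest block joined Cyp1a2 with P450s of several families. Cyp1a2 had 13 partners above 0.6, among them Cyp4v3, Cyp2c70, Cyp2c29, Cyp2j6 and Cyp2d22, Cyp2c29 had 12, and Cyp2c50 and Cyp2j5 had 11 each. Cyp3a13 ran against this block, with 11 partners below -0.6, and Cyp2b10 with 9. Both ran with Fmo5 (2 partners above 0.6, Cyp3a13 and Cyp2b10). Cyp3a11, the PXR target, had a single partner above 0.6, the female-predominant Cyp3a44.

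**Figure D4:**
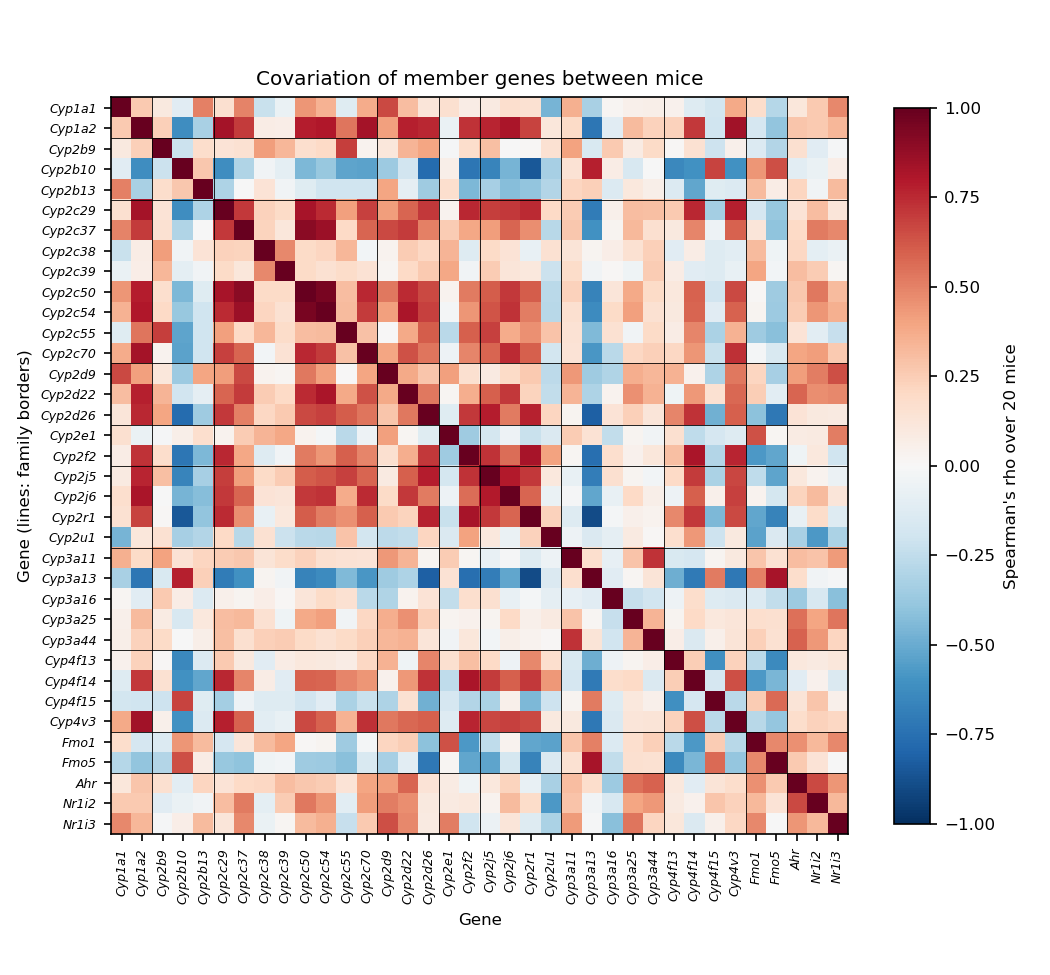
Spearman's rho between each pair of the 36 genes over 20 mice (colour), ordered by family, with lines at family borders. The rows of Cyp1a2, Cyp2c29 and Cyp2c50 are red against many genes of other families, and those of Cyp3a13 and Cyp2b10 are blue against the same genes.

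The closest relations lay within Cyp2c. The pairs given here were picked after their values were seen, so their correlations are a description, with no test. Cyp2c54 and Cyp2c50 had a Pearson's r of 0.981 and a rho of 0.953. The r was 0.951 without MSXH 7 and MSXH 8, which were also the 2 mice farthest from the median, 0.988 within MSXH and 0.964 within HFD. Cyp2c37 and Cyp2c50 had an r of 0.959 and a rho of 0.899, with r at 0.837 without these mice, 0.984 within MSXH and 0.731 within HFD. Cyp2c29 and Cyp2c50 had an r of 0.838 and a rho of 0.827, with r at 0.730 without the 2 farthest mice, 0.936 within MSXH and 0.618 within HFD.

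Across families, Cyp1a2 and Cyp2c50 had an r of 0.893 and a rho of 0.788, with r at 0.761 without MSXH 7 and MSXH 8, 0.972 within MSXH and 0.641 within HFD. Cyp1a2 and Cyp3a13 were opposed, with an r of -0.733 and a rho of -0.723, and with r at -0.595 without these mice, -0.833 within MSXH and -0.519 within HFD. Cyp3a11 and Cyp3a44 had an r of 0.754 and a rho of 0.725, with r at 0.692 without the 2 farthest mice, 0.767 within MSXH and 0.748 within HFD. Probe sets of these related Cyp3a genes may also share transcripts.

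The bases before the start sites of 4 Cyp2c genes are shown because these genes covaried, and Cyp2c70 had one of the smallest p-values. They are the 250 bases upstream of the start in RefSeq's promoter table (GRCm38.p6, 5′ to 3′ on the gene's strand), for Cyp2c37 at chr19:39992174-39992423 on the plus strand, Cyp2c50 at chr19:40089429-40089678 on the plus strand, Cyp2c29 at chr19:39286835-39287084 on the plus strand and Cyp2c70 at chr19:40187287-40187536 on the minus strand. Capitals mark matches, on either strand, to the nuclear receptor half-site AGGTCA, to its variant AGTTCA, to the AHR core GCGTG and to the pattern CAAAGTNCA, which resembles binding sites of the liver factor HNF4. The capitals in Cyp2c50 nearest its start are an opposite-strand match to the variant half-site, and no matches overlap in these 4 windows.
Cyp2c37: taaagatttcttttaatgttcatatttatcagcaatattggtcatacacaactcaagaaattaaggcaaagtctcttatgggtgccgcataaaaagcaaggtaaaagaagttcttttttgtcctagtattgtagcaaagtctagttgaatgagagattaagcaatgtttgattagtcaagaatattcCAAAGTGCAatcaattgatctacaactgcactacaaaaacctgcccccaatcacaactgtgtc
Cyp2c50: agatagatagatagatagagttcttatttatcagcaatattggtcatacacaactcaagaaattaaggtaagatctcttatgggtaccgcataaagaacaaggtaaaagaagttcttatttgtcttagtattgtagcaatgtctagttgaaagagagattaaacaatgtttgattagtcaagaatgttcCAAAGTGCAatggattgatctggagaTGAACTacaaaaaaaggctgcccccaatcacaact
Cyp2c29: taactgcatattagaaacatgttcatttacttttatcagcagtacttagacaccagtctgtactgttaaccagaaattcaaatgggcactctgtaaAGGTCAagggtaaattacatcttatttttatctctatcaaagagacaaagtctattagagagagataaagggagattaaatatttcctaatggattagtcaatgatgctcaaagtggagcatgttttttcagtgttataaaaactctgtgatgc
Cyp2c70: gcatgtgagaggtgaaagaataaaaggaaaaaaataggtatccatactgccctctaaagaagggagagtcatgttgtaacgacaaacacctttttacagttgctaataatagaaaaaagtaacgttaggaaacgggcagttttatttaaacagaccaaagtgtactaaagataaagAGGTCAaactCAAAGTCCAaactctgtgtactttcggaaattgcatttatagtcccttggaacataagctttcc

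Cyp2c37 and Cyp2c50 were identical at 215 of 255 aligned columns, or 84.3%, and carried the same CAAAGTGCA, starting 63 and 61 bases before the start site. Cyp2c70 carried CAAAGTCCA 64 bases before its start, next to AGGTCA at 74, although its identity to Cyp2c37 was only 50.6%. Cyp2c29, which covaried with Cyp2c50 too, held no match to CAAAGTNCA in this window. In all, 7 of the 31 genes of the set with an entry in the table (22.6%) held that pattern, Cyp2c37, Cyp2c50, Cyp2c70, Cyp2d26, Cyp3a11, Cyp3a16 and Cyp3a44, where the share of all 32851 promoters was 1.19%. AGGTCA was found in 10 of 31 (32.3%, all promoters 14%) and AGTTCA in 4 of 31 (12.9%, all promoters 11.8%). GCGTG was found in 4 of 31 (12.9%, all promoters 28.2%): Cyp1a1, Cyp2b10, Cyp4f14 and Cyp4v3. Related genes share much of their sequence, so these counts are not of independent promoters, and a match is a description of letters.

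Receptor levels were then set against their known targets, again as a description. Ahr and Cyp1a1 had an r of 0.175 and a rho of 0.111, and r was 0.202 without the 2 farthest mice, 0.287 within MSXH and 0.017 within HFD. Ahr and Cyp1a2 had an r of 0.223 and a rho of 0.277, and r was 0.406 without the 2 farthest mice, 0.636 within MSXH and -0.110 within HFD. Nr1i2 and Cyp3a11 had an r of 0.344 and a rho of 0.286, and r was 0.240 without the 2 farthest mice, 0.193 within MSXH and 0.484 within HFD.

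The relation of Nr1i3 to Cyp2b10 rested on MSXH 7 and MSXH 8. The r was -0.502 and the rho 0.066, but r was 0.207 without these mice, -0.780 within MSXH and 0.424 within HFD. Nr1i3 and Cyp2c37, also known as a CAR-responsive gene, had an r of 0.919 and a rho of 0.480, and r was 0.513 without these mice, 0.932 within MSXH and 0.785 within HFD. Ahr and Nr1i2, which encode receptors of different protein families, had an r of 0.714 and a rho of 0.659. Their r was 0.669 without the 2 farthest mice, 0.638 within MSXH and 0.733 within HFD.

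**Figure D5:**
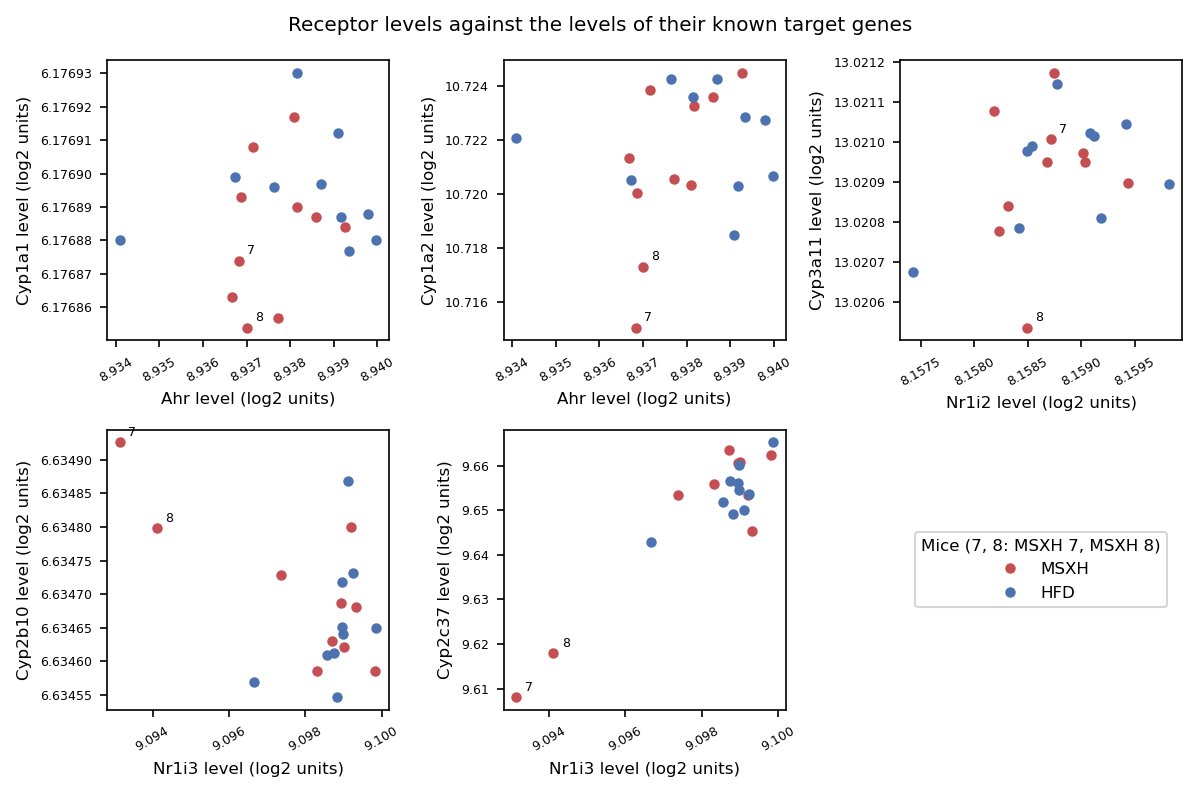
Level of a receptor (x axis, log2 units) against that of a known target gene (y axis, log2 units), 1 point per mouse, MSXH red and HFD blue, with MSXH 7 and MSXH 8 numbered. Cyp2b10 and Cyp2c37 against Nr1i3 show these mice far left of the others, and the Ahr and Nr1i2 panels show no such separation.

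The other genes of the pathway were read from lists of 51 genes, of which 42 were measured: 21 had a higher and 21 a lower mean in MSXH, and none passed at an adjusted p of 0.05 by limma, while the unadjusted p of 3 was under 0.05, where the share among all genes was 10.9%. The count higher was 5 under quantile normalization (7.06% of all genes were higher) and 3 under centring (2.75% of all genes). It was 24 without MSXH 4 and MSXH 6 (54.6% of all genes) and 25 without MSXH 7 and MSXH 8 (54.9% of all genes). Among 15 genes of haem supply and electron donors, Alas1, the first and rate-limiting enzyme of haem synthesis, ranged from 10.1536 to 10.2355 (median 10.2011) in MSXH and from 10.2037 to 10.2379 (median 10.2174) in HFD. The lowest mouse was MSXH 8, and MSXH was higher in 20 of 100 pairs, a difference of -1.092 (-2.025 to -0.134, limma unadjusted p 0.0224, adjusted p 0.372). Uros, the fourth enzyme of that route, ranged from 9.156164 to 9.156203 (median 9.156179) in MSXH and from 9.156150 to 9.156178 (median 9.156166) in HFD. MSXH was higher in 91 of 100 pairs, a difference of 1.649 (0.606 to 2.659, limma unadjusted p 0.00202, adjusted p 0.229), which was 0.237 under quantile normalization and -0.583 under centring. Alas1 stood at -1.094 and -1.100 under these scalings.

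Among 11 measured partners, chaperones and repressors of the receptors, 5 had a higher and 6 a lower mean. Nr0b2, which encodes the repressor SHP, ranged from 8.4076 to 8.4281 (median 8.4204) in MSXH and from 8.4014 to 8.4194 (median 8.4127) in HFD. The groups overlapped, and the difference was 1.029 (0.078 to 1.954, higher in 76 of 100 pairs, limma unadjusted p 0.0302, adjusted p 0.406). Of 16 other measured targets of AHR, PXR and CAR, such as transferases and transporters, 8 had a higher and 8 a lower mean. The smallest unadjusted p there was 0.138, for Abcc2, which exports conjugates into bile.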

How the data were processed

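Total RNA from 20 livers was labelled with biotin by the Affymetrix 3' IVT Express kit, 1 array per mouse, per the labels' protocols. Values deposited by the authors run from 5.173 to 15.005 and were read as log2 levels. How they were scanned, scaled and summarized, and the log base, is not given in the sources used here. Of 45101 probe sets, 34945 had 1 symbol in the platform's gene table, 932 had several and 9160 were not listed, and 64 were controls.

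Values were tested unchanged with limma 3.58.1 in R 4.3.3 (lmFit, eBayes with trend, two-sided, 18 residual and 0.704 prior degrees of freedom), adjusted by Benjamini-Hochberg over 18193 genes, or 34945 probe sets, at a threshold of 0.05. Standardized differences have 95% noncentral t intervals. The script was tested on simulated data. Correlations over mice are given without tests. Python 3.11.15 with scipy 1.17.1 computed the rest. All 36 genes are named, and pathway genes where the unadjusted p was under 0.05 or the smallest of a list. The members and lists were chosen with earlier results of these data known. Mice that share a replicate number correlated between -0.265 and 0.165, so the numbers were not treated as pairs. The number of arrays limits the precision.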

Additional observations from a re-analysis of the deposited data

Results flagged for a closer look

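Nr1i3, the gene of CAR, had a mouse far from the others in the HFD group. HFD 3 stood at 9.0967, while the other HFD mice lay between 9.0986 and 9.0999, a gap of 0.594 of the group's range, against a limit of 0.466 for 10 samples. It was the 1 group beyond that limit among 72 tested, and chance alone puts about 5% of groups beyond it.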

How the results depend on the processing

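Under every alternative run, 0 of 36 genes passed an adjusted p of 0.05, where 0 to 4 of all genes tested passed. The runs were quantile normalization, centring, probe sets averaged per gene, all probe sets, no variance trend, the rank sum test and genes above the median gene. Further runs used a replicate block, or left out MSXH 4 and 6 (also centred), MSXH 7 and 8, or each mouse in turn. The count at an unadjusted p under 0.05, 0 as reported, was 1 under centring (Cyp2d9; 1.15% of all genes), 2 without MSXH 4 and 6 (Cyp1a1 and Cyp2b13; 10.3%), 1 with probe sets averaged per gene (Cyp2u1; 11%) and 1 over all probe sets (10.7%). Leaving out 1 mouse gave 0 to 3 (9.16% to 12.2% of all genes). It was 1 with the replicate block (Cyp2c70, limma unadjusted p 0.0231, adjusted p 0.417; 9.98% of all genes). The replicate numbers only name mice.

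The count of genes higher in MSXH is given with the share of all genes that were higher. It was 11 as reported (54.7%), 2 under quantile normalization (7.06%) and 2 under centring (2.75%). Without MSXH 7 and 8 the count was 24 (54.9%), and without 1 mouse 9 to 14. The median standardized difference, -0.231 as reported, was -0.444 under quantile normalization (over 30 genes, since Cyp2d9, Cyp2d26, Cyp2e1, Cyp2f2, Cyp3a11 and Cyp3a25 took 1 value on all arrays and gave no difference), -0.638 under centring, -0.081 without MSXH 4 and 6 when centred, and 0.094 without MSXH 7 and 8. It ran from -0.363 to -0.084 without 1 mouse, the ends being without HFD 3 and without MSXH 7. The cause was not tested.

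Standardized differences that changed sign were, under quantile normalization, Cyp2b10 -0.365, Cyp2c29 -0.728, Cyp2c38 -0.052, Cyp2d22 0.044, Cyp2u1 -0.206, Cyp3a13 -0.364, Cyp3a16 -0.578, Cyp4f14 -0.22 and Cyp4f15 -0.54. Under centring they were Cyp2b10 -0.441, Cyp2c29 -0.045, Cyp2c38 -0.212, Cyp2f2 -0.659, Cyp2u1 -0.131, Cyp3a16 -0.657, Cyp3a25 -0.548, Cyp4f14 -0.049 and Cyp4f15 -0.458. Without MSXH 4 and 6 it was Cyp2r1 0.104, and when also centred Cyp2f2 -0.004 and Cyp2r1 0.098. Without MSXH 7 and 8, chosen after seeing the data, they were Cyp1a2 0.111, Cyp2c37 0.468, Cyp2c50 0.157, Cyp2c54 0.352, Cyp2d22 0.188, Cyp2d26 0.13, Cyp2e1 0.408, Cyp2j5 0.214, Cyp2j6 0.188, Cyp2r1 0.075, Cyp3a11 0.135, Fmo1 0.05 and Nr1i3 0.058. The genes under the array median on all 20 arrays (Cyp1a1, Cyp2b9, Cyp2b13, Cyp3a16 and Cyp3a44) limit what signal over background can show.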
